A study of Mus musculus with 121 samples.

Results

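Of 12738 chromatin loops listed for asynchronous G1E-ER4 cells, 1507 (11.8%, 95% Wilson interval 11.3 to 12.4) joined 2 sites bound by the transcription factor YY1 without CTCF and the cohesin subunit RAD21 both being present at each end. They were chosen by measured peaks: an untreated YY1 peak overlapped each of the 2 anchors, which are the ends of a loop, by at least 1 bp, and at least 1 anchor lacked an untreated CTCF peak, a RAD21 peak or both. YY1 at both anchors was itself found at 24.5% of all loops, and these 1507 loops made up 48.2% (46.5 to 50) of those 3124 loops. The set is wider than its short name, since only 79 of the 1507 loops (5.24%, 4.23 to 6.49) had no CTCF peak and no RAD21 peak at either anchor.

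G1E-ER4 cells are mouse erythroid progenitors grown from embryonic stem cells without functional GATA1, to which a hormone-activated GATA1 was added. The loops came from Micro-C, a chromosome conformation assay that cuts chromatin with micrococcal nuclease, in the YY1-AID subline, in which YY1 carries an auxin-inducible degron, a tag through which auxin triggers breakdown of the protein. Asynchronous cells were untreated or given auxin for 4 h, with 5 Micro-C libraries for each, and mid-G1 cells (4 libraries for each treatment) were synchronised with nocodazole for 7 h and sorted. Each cell-cycle condition has 1 loop list, merged over untreated and auxin cells, so loops of untreated cells and loops of YY1-depleted cells cannot be told apart in it. ChIP-seq peak lists of the same asynchronous cells, untreated and auxin, covered YY1 (3 libraries each), and a second YY1 antibody, CTCF, RAD21, LDB1 and acetylation of histone H3 at lysine 27 (H3K27ac) with 2 libraries each. The labels of the Micro-C samples and of the second-antibody auxin samples give no hours. For these the 4 h of auxin is taken from the series description. The 7 h of nocodazole is that labelled for the other synchronised samples. Further YY1 peak lists came from the G1E-ER4 MD-mCherry subline at stages from prometaphase to late G1, all labelled with 7 h of nocodazole. They had 3 libraries per stage, with no degron named in the labels. Others came from asynchronous cells titled CTCF-AID, untreated or given auxin for 4 h (2 libraries each). The genotype label of the CTCF-AID samples reads YY1-AID, against their titles, so values from them carry that doubt. Whether any subline is a single clone, and whether the libraries of a group are separate cultures, is not stated.

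The markers fixed for these cells were in place in RNA-seq of the untreated YY1-AID subline (3 libraries, 26.0 to 26.2 M estimated counts each). All 13 erythroid markers reached 1 CPM (estimated counts scaled to a common library total) in every library, with a summed level of 2906 to 2973 CPM. None of the 4 lymphoid, 4 myeloid and 3 pluripotency markers did, their summed levels lay at or below 0.384 CPM, and 3, 2 and 2 of them had no count in any library.

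Most long-lived loops of mammalian chromosomes form when cohesin extrudes chromatin until it meets CTCF bound at convergent sites. Other loops join enhancers and promoters, which carry H3K27ac when active, and in erythroid cells LDB1 is known to bring together sites bound by GATA1 and TAL1. YY1 is a zinc finger protein that binds many promoters and enhancers and can dimerise, and it has been proposed to hold such elements together. The comparisons below place the 1507 loops beside 3 other classes of the same list: 1617 YY1 loops with CTCF and RAD21 at both anchors, 5640 loops with CTCF and RAD21 but not YY1 at both anchors, and 3974 loops with neither pairing. Shares were compared by two-sided Fisher's exact test across loops, with Benjamini-Hochberg adjustment over 21 comparisons, 18 of which passed 0.05. Each peak list is 1 per condition, loops can share anchors and loops are not replicates, so these p-values and the Wilson intervals cover counting over loops and not the spread between libraries.

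CTCF and cohesin were seldom missing altogether from the 1507 loops. In 1103 loops (73.2%, 70.9 to 75.4) 1 anchor held both factors and the other did not, and in 404 loops (26.8%) they met at neither anchor. By number of anchors, the largest cell had 1 CTCF anchor and 1 RAD21 anchor (481 loops, 31.9%), followed by 1 CTCF anchor with RAD21 at both (402 loops, 26.7%) and CTCF at both with 1 RAD21 anchor (261 loops, 17.3%). RAD21 lay at both anchors with no CTCF at either in 61 loops (4.05%), and CTCF at both with no RAD21 in 38 (2.52%). These counts describe the selection.

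**Figure D1:**
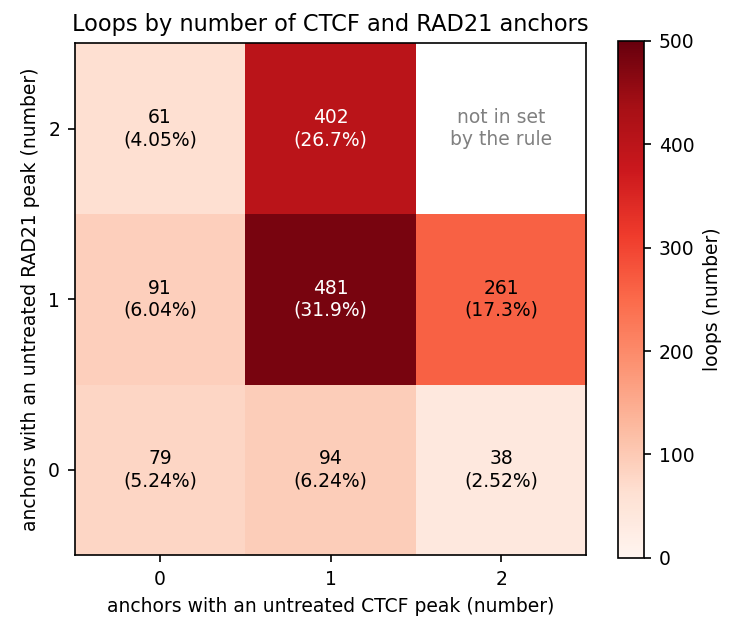
Number of loops (and percent of 1507) by how many of their 2 anchors overlap an untreated CTCF peak (horizontal axis) and an untreated RAD21 peak (vertical axis). Loops with 1 anchor of each are the most frequent (481), and 79 loops have neither factor at either anchor.

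The overlap rule left a margin on both sides. In 140 member loops an anchor held only a part of its best YY1 peak, and in 73 of them the anchor held the smaller part of the peak. Outside the set, 1391 loops had YY1 at exactly 1 anchor and no pairing of CTCF and RAD21. A YY1 peak lay within 1 kb of the other anchor in 215 of these and within 5 kb in 569.

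The loops spanned a median of 150 kb between anchor starts (quartiles 90 and 290 kb, range 45 to 1990 kb). The median was 160 kb for YY1 loops with CTCF and RAD21, 190 kb for CTCF and RAD21 loops without paired YY1 and 175 kb for loops with neither pairing. Loops under 100 kb made up 28.9% (26.6 to 31.2) of the set, 27.2% of YY1 loops with CTCF and RAD21 and 19.9% (18.9 to 21.0) of CTCF and RAD21 loops without paired YY1. Anchors were 5 kb wide in 862 loops (57.2%) and 10 kb in the other 645, and 10 kb anchors went with longer loops (median 240 kb against 105 kb). The 404 loops in which CTCF and RAD21 met at neither anchor had a median of 130 kb and the 1103 others 150 kb. The 3 shortest loops by position all spanned 45 kb, for example that between chr2:3200001-3205000 and chr2:3245001-3250000 (mm9), which had H3K27ac, CTCF and the second YY1 antibody at both anchors and RAD21 at 1. The longest spanned 1990 kb, from chr10:68810001-68820000 to chr10:70800001-70810000, with H3K27ac at both anchors, CTCF and RAD21 at the second anchor and no LDB1.

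Active chromatin marked both ends of most of these loops. H3K27ac lay at both anchors of 1266 of the 1507 loops (84.0%, 82.1 to 85.8), against 20.4% of all asynchronous loops. In YY1 loops with CTCF and RAD21 the share was 54.2% (51.7 to 56.6), and the difference was past the threshold (odds ratio 4.44, Fisher's exact adjusted p = 9.34e-74). It was 3.92% (3.44 to 4.46) in CTCF and RAD21 loops without paired YY1 and 5.99% (5.29 to 6.77) in loops with neither pairing, whose anchors were selected for lacking paired YY1 (odds ratios 129 and 82.5). Since 47.4% of all untreated YY1 peaks overlapped H3K27ac, the YY1 loops with CTCF and RAD21 are the closer comparison. The difference from them had the same direction in each alternative run, from 6.67 percentage points when only YY1 peaks of both antibodies counted (96.8% against 90.1%) to 36.9 points in loops with exactly 1 YY1 peak at each anchor (75.1% against 38.2%). Of the 79 loops with no CTCF or RAD21 peak, 62 had H3K27ac at both anchors (78.5%, 68.2 to 86.1).

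**Figure D2:**
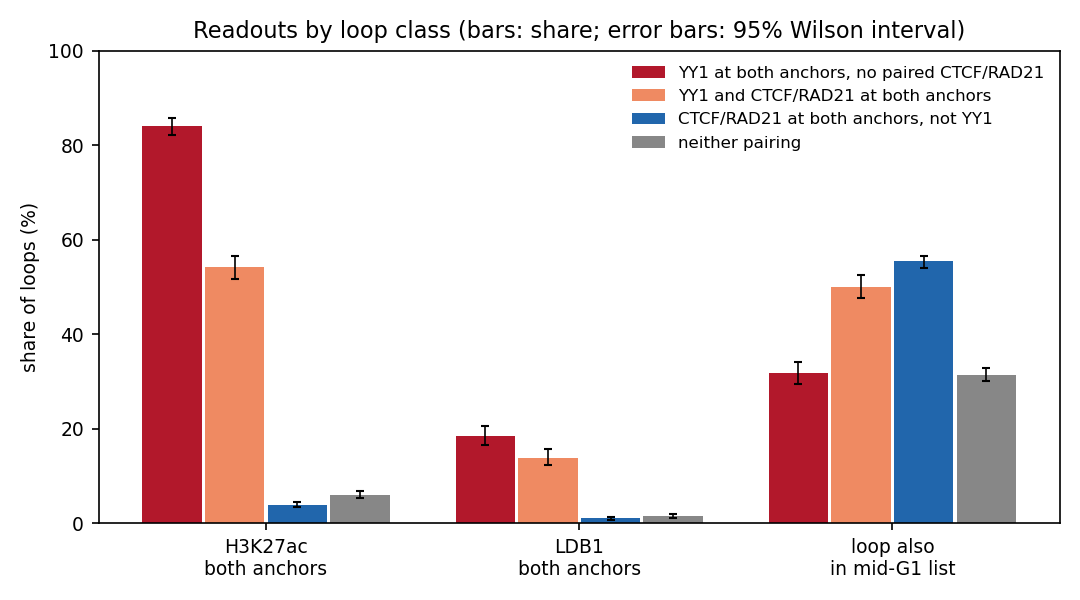
Share of loops (%) with H3K27ac at both anchors, LDB1 at both anchors, or a matching loop in mid-G1, for the 4 loop classes, with 95% Wilson intervals as error bars. The YY1 loops without paired CTCF and RAD21 are highest for H3K27ac (84.0%) and LDB1 (18.5%) and stand at 31.8% for mid-G1, below both classes with paired CTCF and RAD21.

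LDB1, the erythroid looping cofactor, lay at both anchors of 279 loops (18.5%, 16.6 to 20.6), against 4.84% of all asynchronous loops. The shares were 0.993% in CTCF and RAD21 loops without paired YY1 (adjusted p = 2.14e-138) and 1.46% in loops with neither pairing (adjusted p = 4.30e-106, both Fisher's exact). Anchors of these 2 classes were selected for lacking paired YY1, and 17.9% of all untreated YY1 peaks overlapped LDB1. The YY1 loops with CTCF and RAD21 are therefore the closer comparison here too. Against YY1 loops with CTCF and RAD21 (13.9%, 12.3 to 15.6) the odds ratio was 1.41 (Fisher's exact adjusted p = 6.69e-04). That call was lost among loops with H3K27ac at both anchors, where the shares were 20.7% and 23.2% (adjusted p = 0.274), and among loops with 1 YY1 peak at each anchor (7.58% and 7.34%, adjusted p = 0.993), both Fisher's exact tests chosen after the data were seen. Among the H3K27ac loops the shares of the other 2 classes were 12.2% in CTCF and RAD21 loops without paired YY1 (Fisher's exact adjusted p = 0.00807) and 16.0% in loops with neither pairing, where the call was also lost (Fisher's exact adjusted p = 0.180). In the 79 loops without CTCF and RAD21 peaks LDB1 lay at both anchors of 4 (5.06%, 1.99 to 12.3), below the YY1 loops with CTCF and RAD21 (Fisher's exact adjusted p = 0.0462).

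Nearly all loops with LDB1 at both anchors had H3K27ac there too (262 of 279), as in YY1 loops with CTCF and RAD21 (203 of 224). Of the 1507 loops, 262 (17.4%) had both marks at both anchors, 511 (33.9%) had H3K27ac at both with LDB1 at 1, and 493 (32.7%) had H3K27ac at both with no LDB1. In YY1 loops with CTCF and RAD21 these shares were 12.6%, 23.7% and 17.9% in the same order. Only 17 loops had LDB1 at both anchors without H3K27ac at both, and 50 (3.32%, 2.53 to 4.35) had neither mark at any anchor, which was the case in 213 (13.2%) of the YY1 loops with CTCF and RAD21. Thus 614 loops had no LDB1 peak at either anchor, and 80.3% (77.0 to 83.2) of these carried H3K27ac at both. Among YY1 loops with CTCF and RAD21, 289 of the 770 loops without LDB1 did.

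Distances from YY1 were taken within these anchors only, all of which hold a YY1 peak by selection. They therefore do not show that LDB1 lies closer to YY1 here than elsewhere. LDB1 overlapped 18.0% of the YY1 peaks at these anchors and 17.9% of all untreated YY1 peaks. At 662 of 1062 distinct anchors with LDB1 (62.3%, 59.4 to 65.2) an LDB1 peak overlapped a YY1 peak, and the median distance between the nearest midpoints was 234 bp. The RAD21 peaks of 1606 anchors overlapped YY1 at 59.0% (median 282.5 bp) and the CTCF peaks of 1442 anchors at 43.8% (median 513 bp). The second YY1 antibody is the reference for co-location, with overlap at 95.1% of 1438 anchors and a median distance of 12 bp.

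H3K27ac and LDB1 were compared between the anchor with CTCF and RAD21 and its partner without that pair, and neither difference passed the threshold. In the 1103 loops with both factors at exactly 1 anchor, H3K27ac lay at 88.2% of the CTCF and RAD21 anchors and at 89.2% of their partners (adjusted p = 0.502), and LDB1 at 41.0% and 39.6% (adjusted p = 0.609, both exact McNemar tests adjusted over 13 lists and chosen after the data were seen). An auxin-resistant YY1 peak lay at 19.9% and 20.7% (exact McNemar adjusted p = 0.698). A p that misses the threshold does not show equal shares, and LDB1 was more frequent at the CTCF and RAD21 anchor among loops with 10 kb anchors (50.2% against 42.4%, exact McNemar adjusted p = 0.0201) and with anchors widened by 5 kb on each side (53.1% against 44.5%, exact McNemar adjusted p = 2.15e-04). Domain boundaries were more frequent at the CTCF and RAD21 anchor (8.88% against 4.53%, exact McNemar adjusted p = 3.92e-04). That call was lost without shared anchors (exact McNemar adjusted p = 0.296), among loops with 5 kb anchors (8.24% against 5.23%, exact McNemar adjusted p = 0.173) and in 4 further alternatives. The second YY1 antibody was also found there more often (55.4% against 48.3%, exact McNemar adjusted p = 0.00237), but not among loops with 1 YY1 peak at each anchor (47.3% against 48.5%, exact McNemar adjusted p = 0.849), and the exact McNemar adjusted p was 0.346 among loops with 5 kb anchors. Between the 1103 loops and the 404 loops in which the factors met at neither anchor, none of 6 readouts passed the adjusted threshold, and 2 had an unadjusted p under 0.05 (0.0213 and 0.0237, both adjusted p = 0.0711: H3K27ac at both anchors 82.7% against 87.6%, second antibody at both 29.3% against 35.4%, Fisher's exact tests chosen after the data were seen).

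Fewer of these loops were found again in mid-G1. A mid-G1 loop overlapped both anchors of 479 loops (31.8%, 29.5 to 34.2), against 44.4% of all asynchronous loops. The share was 50% (809 of 1617, 47.6 to 52.5) in YY1 loops with CTCF and RAD21 (odds ratio 0.465, Fisher's exact adjusted p = 8.60e-25) and 55.4% (54.1 to 56.6) in CTCF and RAD21 loops without paired YY1 (odds ratio 0.376, Fisher's exact adjusted p = 7.59e-60). Loops with neither pairing stood at 31.4% (30.0 to 32.8, Fisher's exact adjusted p = 0.808). The difference from this last class turned with the way loops were matched: with anchor midpoints within 10 kb the shares were 54.3% and 60.4% (Fisher's exact adjusted p = 8.53e-05).

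The lower share relative to the 2 classes with paired CTCF and RAD21 was found at both anchor widths and in each length bin. With 5 kb anchors 37.8% of the loops had a mid-G1 match, against 58.5% of YY1 loops with CTCF and RAD21, and with 10 kb anchors 23.7% against 37.7%. The shares were 36.3% and 55.7% under 100 kb, 34.4% and 51.2% from 100 to 250 kb, and 23.3% and 42.8% over 250 kb. Among loops with H3K27ac at both anchors they were 33.1% and 47.4% (Fisher's exact adjusted p = 6.76e-10). Counting only YY1 peaks of both antibodies left 432 loops of the set, with 37.3% against 46.6% (Fisher's exact adjusted p = 0.0557).

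**Figure D3:**
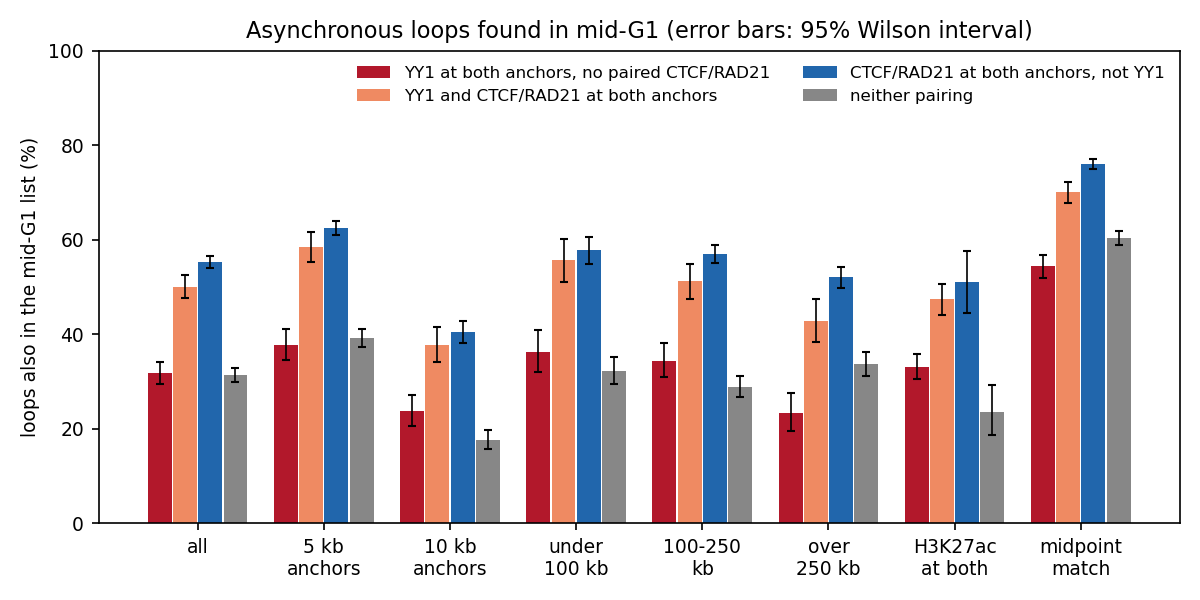
Share of asynchronous loops (%) that overlap a mid-G1 loop at both anchors, by loop class, for all loops, by anchor width, by loop length, for loops with H3K27ac at both anchors, and with anchor midpoints within 10 kb as the match. Error bars are 95% Wilson intervals. The YY1 loops without paired CTCF and RAD21 lie below both classes with paired CTCF and RAD21 in each group shown (31.8% against 50% and 55.4% over all loops).

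Within the set, loops with H3K27ac at both anchors were in the mid-G1 list more often than the rest (33.1% of 1266 against 24.9% of 241, Fisher's exact adjusted p = 0.0190 over 3 tests chosen after the data were seen). The same held for the second YY1 antibody at both anchors (36.9% of 466 against 29.5%, Fisher's exact adjusted p = 0.0147). With LDB1 at both anchors 28.7% of 279 loops had a match, and without it 32.5% (Fisher's exact adjusted p = 0.227). Applied to the 14155 mid-G1 loops with the same asynchronous peaks, the rule selected 1667 (11.8%), of which 27.4% (25.3 to 29.6) matched an asynchronous loop. The matched share of mid-G1 loops was 47.8% for YY1 loops with CTCF and RAD21, 47.6% for CTCF and RAD21 loops without paired YY1 and 29.2% for loops with neither pairing.

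YY1 occupancy at these anchors was found again in other YY1 lists more often than at YY1 loops with CTCF and RAD21. The second antibody, with 9164 peaks against 41163 for the first, had a peak at both anchors of 466 loops (30.9%, 28.6 to 33.3), against 16.3% (14.6 to 18.2; odds ratio 2.29, Fisher's exact adjusted p = 9.41e-22) and 5.96% of all asynchronous loops. In asynchronous cells titled CTCF-AID, YY1 peaks lay at both anchors of 55.1% of the loops without auxin, against 34.7% (Fisher's exact adjusted p = 3.61e-30), and of 67.4% with auxin, against 40.2% (Fisher's exact adjusted p = 1.87e-52). Over all asynchronous loops these 2 lists had a peak at both anchors of 11.2% and 13.6%. The number of YY1 peaks per anchor was similar, with a median of 1 in both classes and a mean of 1.54 against 1.46. All 3 differences had the same direction in loops with 1 YY1 peak at each anchor (28.5% against 12.1% for the second antibody, and 48.1% against 26.5% and 59.5% against 27.6% for the CTCF-AID lists). Among loops with H3K27ac at both anchors the differences were smaller, 35.8% against 27.2% for the second antibody, and 63.4% against 54.3% and 77.2% against 66.9% for the CTCF-AID lists (Fisher's exact adjusted p = 1.28e-04, 1.28e-04 and 2.02e-06). With YY1 peaks of both antibodies the CTCF-AID shares were 94.0% and 91.8% untreated (Fisher's exact adjusted p = 0.474) and 97.0% and 90.1% with auxin (Fisher's exact adjusted p = 0.00147). Of all untreated YY1 peaks 19.4% overlapped a peak of the second antibody, against 34.1% of those at the anchors of the set. Lists were made from pools of cells and give no height, so a site bound in fewer cells and a site bound more weakly in every cell cannot be told apart.

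**Figure D4:**
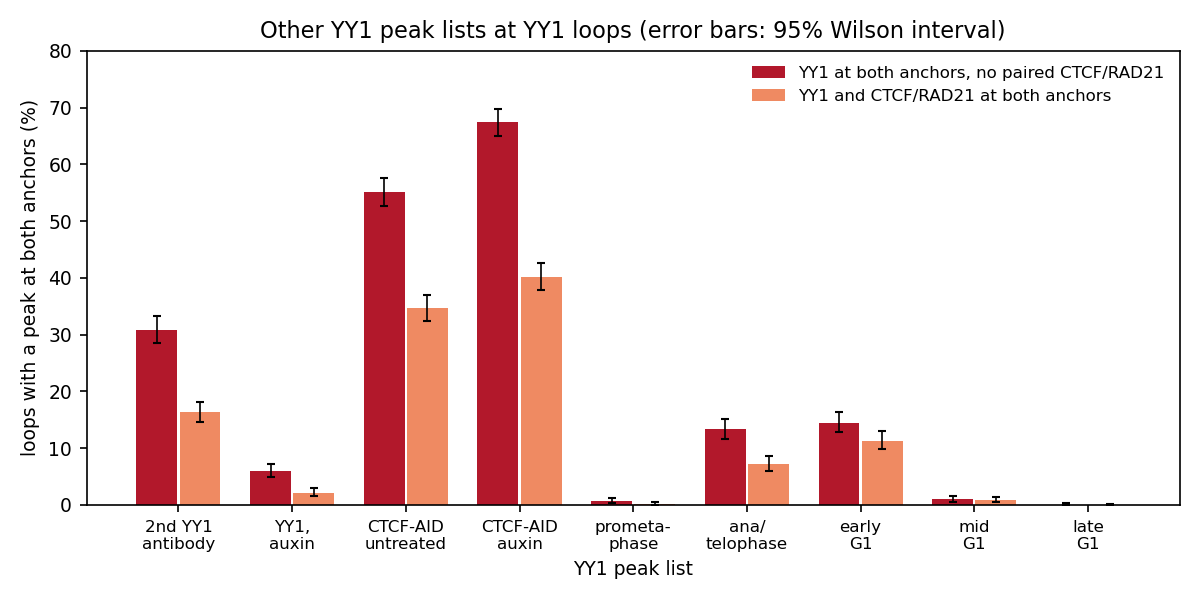
Share of loops (%) with a peak of each further YY1 list at both anchors, for YY1 loops without (dark) and with (light) paired CTCF and RAD21. Error bars are 95% Wilson intervals. The share is higher without the pair for the second antibody (30.9% against 16.3%), auxin-resistant YY1 (5.97% against 2.10%) and the CTCF-AID lists, and near 0 in both classes for the prometaphase, mid-G1 and late G1 lists.

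After mitosis YY1 returns to chromatin in steps. The MD-mCherry lists give the peaks by the stage in which they emerged, from prometaphase, which lies within mitosis, to late G1. A peak of any of the 5 stage lists lay at both anchors of 719 loops (47.7%, 45.2 to 50.2) and of 32.5% of YY1 loops with CTCF and RAD21 (Fisher's exact adjusted p = 7.11e-18), against 10.3% of all asynchronous loops. The corresponding shares of all asynchronous loops were 0.102% for prometaphase, 2.58% for anaphase to telophase, 3.35% for early G1 and 0.228% for mid-G1 peaks. By single stage, peaks that emerged in anaphase to telophase lay at both anchors of 13.3% against 7.17% (Fisher's exact adjusted p = 2.49e-08). For early G1 the shares were 14.5% and 11.3% (Fisher's exact adjusted p = 0.0122), and for prometaphase 11 loops against 2 (0.730% and 0.124%, Fisher's exact adjusted p = 0.0136), both calls lost under most alternatives. For mid-G1 they were 0.995% and 0.804% (Fisher's exact adjusted p = 0.637), and no loop of the set had a late G1 peak at both anchors, a list of 243 peaks. Among loops with H3K27ac at both anchors the anaphase to telophase shares were 15.6% and 12.6% (Fisher's exact adjusted p = 0.0994). Within the 1103 loops with CTCF and RAD21 at exactly 1 anchor, a peak of any stage list was more frequent at that anchor. The shares were 70.8% against 63.1% (exact McNemar adjusted p = 3.92e-04). They were 36.4% against 30.8% for anaphase to telophase and 40.4% against 34.5% for early G1 (exact McNemar adjusted p = 0.0121 and 0.0111). Prometaphase (4.99% against 6.07%) and mid-G1 (10.9% against 8.25%) did not pass. These tests were chosen after the data were seen.

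The anchors together held 3928 of the 41163 untreated YY1 peaks. Of these 3928 peaks 47.9% (46.4 to 49.5) were in a stage list, against 41.0% of 3765 peaks at anchors of YY1 loops with CTCF and RAD21 and 34.5% of all YY1 peaks. Anaphase to telophase peaks made up 21.6%, 16.2% and 12.1% of the same 3 sets, and prometaphase peaks 3.72%, 1.99% and 1.63%. Early G1 peaks made up 18.3%, 18.6% and 16.4%. Some peaks belong to anchors of both loop classes, and these shares are given without a test. H3K27ac overlapped 75.8% (74.5 to 77.2) of the 3928 peaks themselves, against 59.3% and 47.4%, whereas LDB1 overlapped 18.0%, 15.4% and 17.9%.

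Auxin removed most YY1 peaks, from 41163 to 3713 in the list of the first antibody, and 7.55% of all untreated peaks overlapped an auxin peak. At the anchors of the 1507 loops 549 of 3928 peaks did (14.0%, 12.9 to 15.1), and at anchors of YY1 loops with CTCF and RAD21 8.90% (8.03 to 9.85). Both anchors kept a YY1 peak in 90 loops (5.97%, 4.88 to 7.28), against 34 YY1 loops with CTCF and RAD21 (2.10%; odds ratio 2.96, Fisher's exact adjusted p = 3.70e-08) and 1.00% of all asynchronous loops. A further 479 loops (31.8%) kept YY1 at 1 anchor and 938 (62.2%, 59.8 to 64.7) at neither. Of the 2743 distinct anchors, 21.4% (19.9 to 23.0) had an auxin YY1 peak, against 13.1% of the 2793 anchors of YY1 loops with CTCF and RAD21. For the second antibody 27.5% (25.2 to 29.8) of 1438 anchors kept their peak. The share was 23.8% (21.4 to 26.5) of 1061 anchors of YY1 loops with CTCF and RAD21, and these intervals overlap. The call for both anchors did not hold for loops with 10 kb anchors alone (difference of 1.13 percentage points, Fisher's exact adjusted p = 0.339). It was also lost when only YY1 peaks of both antibodies counted (19.9% against 13.4%, Fisher's exact adjusted p = 0.0764).

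The other factors mostly kept their peaks at these anchors while YY1 was depleted. H3K27ac peaks were found again at 2426 of 2445 anchors (99.2%, 98.8 to 99.5), CTCF at 1386 of 1442 (96.1%), RAD21 at 1526 of 1606 and LDB1 at 967 of 1062 (91.1%, 89.2 to 92.6). At anchors of YY1 loops with CTCF and RAD21 the kept shares were 97.7% for H3K27ac, 2764 of 2793 anchors for CTCF, 99.1% for RAD21 and 91.5% for LDB1, given without a test. New LDB1 peaks appeared at 80 of 1681 anchors that had none (4.76%), so the number of anchors with LDB1 was 1062 before and 1047 after auxin.

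More anchors had RAD21 and CTCF peaks in the auxin lists than in the untreated ones. RAD21 lay at 1606 of the 2743 anchors before auxin (58.5%, 56.7 to 60.4) and at 1927 after (70.3%, 68.5 to 71.9), and CTCF at 1442 (52.6%) and 1655 (60.3%). A RAD21 peak appeared at 401 of 1137 anchors that had none (35.3%, 32.5 to 38.1), and a CTCF peak at 269 of 1301 (20.7%, 18.6 to 23.0). At anchors of loops with neither pairing the shares were 9.39% of 4953 anchors for RAD21 and 5.09% of 4421 for CTCF. The RAD21 list as a whole grew from 39745 to 50028 peaks and the CTCF list from 59085 to 64548. The anchors were selected partly for lacking untreated peaks of these 2 factors, so these values carry no test, and the part of the list sizes in them was not tested. With the auxin lists, 249 of the 1507 loops (16.5%, 14.7 to 18.5) had CTCF and RAD21 at both anchors. By selection none of them did with the untreated lists, so this share could only rise. Every YY1 loop with CTCF and RAD21 had the pair in the untreated lists by selection. With the auxin lists 1562 of these 1617 loops (96.6%, 95.6 to 97.4) had it. Of the 79 loops without either factor, 8 gained RAD21 at both anchors, 2 gained CTCF at both and 0 had the pair at both, which allows a share of up to 4.64% by the Wilson interval.

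**Figure D5:**
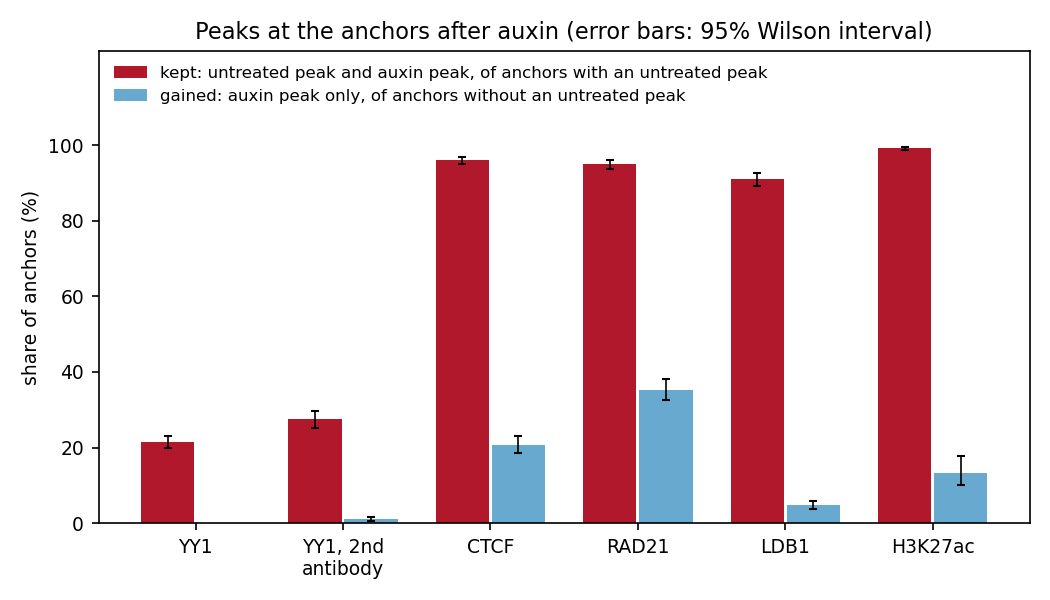
Share of the 2743 distinct anchors (%) that kept a peak of each list after auxin (of anchors with an untreated peak, dark) or gained one (of anchors without, light), with 95% Wilson intervals as error bars. YY1 has no light bar because each anchor has an untreated YY1 peak by selection. CTCF, RAD21, LDB1 and H3K27ac were kept at 91.1% to 99.2% of anchors and YY1 at 21.4%, and gains were 35.3% for RAD21 and 20.7% for CTCF.

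The loops seldom traced domains. A boundary of the merged asynchronous list lay at both anchors of 6 loops (0.398%, 0.183 to 0.866), against 0.801% of all asynchronous loops. The shares were 1.18% in YY1 loops with CTCF and RAD21 (Fisher's exact adjusted p = 0.0184), 1.06% in CTCF and RAD21 loops without paired YY1 (Fisher's exact adjusted p = 0.0180) and 0.428% in loops with neither pairing (Fisher's exact adjusted p = 1.00). The first 2 calls rest on these 6 loops and were lost under most alternatives. The 2 anchors lay within 20 kb of the 2 ends of a domain listed for both treatments in 37 loops (2.46%, 1.79 to 3.37), against 6.56% (5.45 to 7.87) of YY1 loops with CTCF and RAD21, 6.97% of CTCF and RAD21 loops without paired YY1 and 3.72% of loops with neither pairing. In 1019 loops (67.6%) both anchors lay inside 1 domain, against 75.6%, 72.7% and 59.9% of the same 3 classes in that order. In 489 (32.4%, 30.1 to 34.9) a boundary lay between them, against 29.3%, 32.5% and 28.9%. A larger loop with CTCF and RAD21 at both anchors spanned 781 of the loops (51.8%, 49.3 to 54.3), against 64.4% (62.1 to 66.7), 57.7% and 43.2%. These domain and span shares are descriptions without a test.

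Some anchors took part in several loops. After anchors that overlap were joined, 2560 remained, of which 2170 belonged to 1 loop of the set, 340 to 2 and 50 to 3 or more, with a maximum of 6. H3K27ac marked 87.3% (85.9 to 88.7) of the anchors in 1 loop, 95.3% of those in 2 and 50 of 50 of those in 3 or more, and LDB1 marked 37.5%, 45.6% and 44.0%. Joined anchors are wider (median 5 kb in 1 loop, 10 kb in the others) and the part of that width in these shares was not tested. CTCF lay at 53.4%, 51.8% and 54.0% of the same anchors. Through shared anchors the loops formed 1073 groups, of which 796 were single loops and 90 had 3 or more loops, holding 337 loops (22.4%) in all. Of the 2743 distinct anchors 414 (15.1%) overlapped an anchor of a YY1 loop with CTCF and RAD21, and 771 (28.1%) an anchor of any other class.

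The largest group held 17 loops among 12 anchors over 2130 kb (chr2:172170001-174300000, mm9). All 12 anchors had H3K27ac, and 9 of the 17 loops were in the mid-G1 list. Its first anchor, chr2:172170001-172180000, took part in 4 loops and had 2 YY1 peaks, LDB1 and early G1 and mid-G1 YY1 peaks. It had no untreated CTCF or RAD21 peak, and both were listed there after auxin. The anchor with the most loops, chr2:173480001-173490000, took part in 6 and had 1 YY1 peak, a prometaphase YY1 peak and auxin YY1 peaks of both antibodies. It had no LDB1 and no CTCF, and RAD21 was listed after auxin only. The loop between these 2 anchors spanned 1315 kb and had neither CTCF nor RAD21 at either anchor in untreated cells.

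LDB1, H3K27ac and the second YY1 antibody were all present at both anchors of 65 of the 1507 loops, a count given for this set alone. Of these 65 loops the one with the most YY1 peaks, 3 and 5 at its anchors, joined chr15:81970001-81980000 and chr15:82170001-82180000 over 200 kb. CTCF lay at both of these anchors and RAD21 at the first alone, so the loop entered the set through 1 missing RAD21 peak, and RAD21 was listed at both after auxin. YY1 was kept at both anchors with both antibodies, both had prometaphase YY1 peaks, and the loop had no match in mid-G1. Next came 2 loops with 7 YY1 peaks each. One joined chr10:66550001-66560000 and chr10:66640001-66650000 over 90 kb and the other chrX:11580001-11590000 and chrX:11710001-11720000 over 130 kb. Both had RAD21 at both anchors and CTCF at the second alone, kept YY1 at 1 anchor after auxin and had no mid-G1 match.

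Auxin YY1 peaks of both antibodies lay at both anchors of 28 loops, a count given for this set alone. Of the single YY1 peaks at anchors of the set 6.59% overlapped auxin peaks of both antibodies. This was the case for 3.59% of peaks at anchors of YY1 loops with CTCF and RAD21 and 2.84% of all untreated YY1 peaks. After the chromosome 15 loop, the loops among the 28 with the most YY1 peaks, 4 each, included the 55 kb loop from chr4:133310001-133315000 to chr4:133365001-133370000, which was also found in mid-G1. It had CTCF and RAD21 at the first anchor, before and after auxin, H3K27ac at both, anaphase to telophase YY1 peaks at both and no LDB1. A second, from chr5:138220001-138230000 to chr5:138620001-138630000, spanned 400 kb and had CTCF at both anchors and RAD21 at the first, and LDB1 was listed at its first anchor after auxin only. Prometaphase YY1 peaks lay at both anchors of 11 loops. The first 4 of them by position spanned 45 to 60 kb, and 3 of the 4 were in the mid-G1 list. Each of the 4 kept YY1 of both antibodies at both anchors after auxin and had H3K27ac at both anchors. The 11 loops also included the 200 kb chromosome 15 loop and the 1970 kb loop from chr8:110110001-110120000 to chr8:112080001-112090000, neither in the mid-G1 list. Length and mid-G1 match of the first 4 thus do not stand for the 11. The 45 kb loop from chr2:179710001-179715000 to chr2:179755001-179760000 had no CTCF at either anchor and RAD21 at 1, and after auxin CTCF was listed at 1 and RAD21 at both.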

How the data were processed

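Micro-C loops, boundaries and domains and ChIP-seq peaks were used as the positions that the authors deposited, in mm9 coordinates of the mouse genome. The submitters' processing notes name this build, Bowtie2, MACS2 2.2.7 and deepTools 3.5.1. The lists give no score. For the caller of loops, the peak thresholds and the combining of libraries the sources used here give nothing. Marker levels came from the deposited table of estimated counts per gene, which holds whole numbers and for which the processing notes list Salmon 0.13.1 and DESeq2. They were scaled here to CPM by the library total.

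An anchor held a feature if they overlapped by at least 1 bp, and a loop was in mid-G1 if its 2 anchors overlapped the 2 anchors of 1 mid-G1 loop. Shares have 95% Wilson intervals and were compared by Fisher's exact test or, within loops, the exact McNemar test, with Benjamini-Hochberg adjustment and a threshold of 0.05 (Python 3.11.15, SciPy 1.17.1). Intervals cover counting error only. Class, mark and mid-G1 calls were tested on 4000 simulated loops, with 0 wrong calls. The same class rule set the expected class, so this covered the overlaps behind the classes and not the rule itself. The loops and lists were chosen with earlier results of these data known.

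Loops were named by a rule: the 3 shortest and 3 longest, up to 6 with LDB1, H3K27ac and the second YY1 antibody at both anchors and the most YY1 peaks, up to 4 with auxin YY1 peaks of both antibodies at both anchors, up to 4 with prometaphase YY1 peaks at both, and up to 6 of the largest group, with ties broken by position. No gene was assigned to a loop and no anchor sequence was read, because an mm9 genome and annotation were not used here. Alternatives covered overlap, anchor and peak width, shared anchors, loop length, the definition of the set and the mid-G1 match.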

Additional observations from a re-analysis of the deposited data

How the results depend on the processing

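Differences are percentage points, the loops of the set minus the other class, and calls are Fisher's exact tests with Benjamini-Hochberg adjustment. Of 337 recomputed values over 18 alternatives, 249 kept their direction and their side of 0.05 (or, for counts of loops, stayed within 1.5 times), 53 lost the call, 6 gained one, 27 changed sign and 2 counts moved. H3K27ac, the second YY1 antibody, YY1 in CTCF-AID cells with auxin and the lower mid-G1 share relative to CTCF and RAD21 loops without paired YY1 kept direction and call in each alternative run. The set held 79 loops when no CTCF or RAD21 peak was allowed at either anchor and 432 when YY1 peaks had to be found by both antibodies, against 1507. Causes were not tested.

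Compared with YY1 loops with CTCF and RAD21, LDB1 at both anchors (4.66) lost its call with anchors widened by 5 kb (2.43), with 10 kb anchors (4.05), over 250 kb (2.05) and with 1 YY1 peak at each anchor (0.241). It changed sign with no CTCF or RAD21 at either anchor (-8.79), with YY1 of both antibodies (-3.12) and among loops with H3K27ac at both anchors (-2.48). Against loops with neither pairing it lost its call among the H3K27ac loops (4.73). The restrictions to H3K27ac loops and to 1 YY1 peak at each anchor were chosen after seeing the data.

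Early G1 YY1 peaks (3.15) lost the call with 5 kb around anchor midpoints (1.80), peaks of 200 bp (2.45), no shared anchors (3.11), 5 kb (2.71) and 10 kb anchors (3.76), lengths under 100 kb (4.48), 100 to 250 kb (2.09) and over 250 kb (3.53), CTCF and RAD21 from either treatment (1.12), H3K27ac loops (0.184) and 1 YY1 peak per anchor (1.20). They changed sign with no CTCF or RAD21 (-1.19) and with both antibodies (-2.91). Prometaphase peaks (0.606) lost it with widened anchors (0.423), no shared anchors (0.730), 10 kb anchors (0.160), 100 to 250 kb (0.328), over 250 kb (0.480), no CTCF or RAD21 (1.14), CTCF and RAD21 from either treatment (0.254), both antibodies (1.68), H3K27ac loops (0.641) and 1 YY1 peak per anchor (0.688). Anaphase to telophase peaks (6.16) lost it with both antibodies (2.88) and in H3K27ac loops (3.08). Mid-G1 peaks (0.191, no call) gained one with widened anchors (0.947) and changed sign with no shared anchors (-0.0869), under 100 kb (-0.674), with no CTCF or RAD21 (-0.804), CTCF and RAD21 from either treatment (-0.135) and both antibodies (-0.599).

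Boundaries at both anchors, relative to YY1 loops with CTCF and RAD21 (-0.777), lost the call with 5 kb around anchor midpoints (-0.485), no shared anchors (-0.112), 5 kb (-0.785) and 10 kb anchors (-0.757), under 100 kb (-0.227), 100 to 250 kb (-0.821), over 250 kb (-1.23), no CTCF or RAD21 (-1.18), CTCF and RAD21 from either treatment (-0.648) and 1 YY1 peak per anchor (-0.593), and changed sign with both antibodies (0.263). Relative to CTCF and RAD21 loops without paired YY1 (-0.666) the values without a call were -0.285 with 5 kb around anchor midpoints, -0.650 with no shared anchors, -0.532 and -0.897 with 5 and 10 kb anchors, 0 under 100 kb, -0.693 at 100 to 250 kb, -0.748 over 250 kb, -1.06 with no CTCF or RAD21, -0.416 with both antibodies and -0.137 in H3K27ac loops. Relative to loops with neither pairing (-0.0296, no call) the sign changed with 5 kb around anchor midpoints (0.0308), widened anchors (0.444), no shared anchors (0.143), 10 kb anchors (0.0321), over 250 kb (0.349), CTCF and RAD21 from either treatment (0.00231), both antibodies (0.298) and H3K27ac loops (0.316).

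With YY1 of both antibodies, calls were also lost for the mid-G1 share relative to YY1 loops with CTCF and RAD21 (-9.28), YY1 kept after auxin (6.55), any stage list (5.60) and untreated CTCF-AID cells (2.17), and YY1 kept after auxin also lost it with 10 kb anchors (1.13). The mid-G1 share relative to loops with neither pairing (0.406, no call) gained a call with 5 kb around anchor midpoints (3.13), 10 kb anchors (6.14), 100 to 250 kb (5.50), both antibodies (6.27) and H3K27ac loops (9.57). It changed sign with a call over 250 kb (-10.4), with midpoints within 10 kb (-6.02) and with mid-G1 anchors widened by 10 kb (-6.07), and without a call with anchors widened by 5 kb (-1.69), no shared anchors (-1.41), 5 kb anchors (-1.39), no CTCF or RAD21 (-7.33) and CTCF and RAD21 from either treatment (-0.606). Within loops (CTCF and RAD21 anchor minus its partner), the second antibody (7.07) lost its call in 4 alternatives. It changed sign with 1 YY1 peak per anchor (-1.18). With YY1 of both antibodies its shares were fixed near 100% by selection (99.7% and 100%), so that difference (-0.337) tests nothing. Boundaries (4.35) lost their call in 6 alternatives. H3K27ac (-0.997, no call) changed sign with 5 kb around anchor midpoints (0.649), widened anchors (0.103), over 250 kb (0.313) and both antibodies (2.02). LDB1 (1.36, no call) gained a call with widened anchors (8.56) and 10 kb anchors (7.84) and changed sign with 5 kb around anchor midpoints (-1.51), 5 kb anchors (-3.49), under 100 kb (-5.52), CTCF and RAD21 from either treatment (-0.712) and 1 YY1 peak per anchor (-1.89). Auxin-resistant YY1 (-0.725, no call) changed sign with 5 kb around anchor midpoints (0.973), no shared anchors (0.313), 10 kb anchors (0.424), under 100 kb (0.325), 100 to 250 kb (0.630) and CTCF and RAD21 from either treatment (1.32).

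No paired analysis was possible because peaks and loops come as 1 list per condition with no replicate columns. For the same reason leaving out a replicate was not run, and neither were the alternatives planned for genes at anchors (another count test, no filter, a replicate term), since no gene was assigned to a loop. Depth of the ChIP-seq and Micro-C libraries is unknown from these lists.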
